A study of Mus musculus with 6 samples.

Results

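The genes described here make, store, take up and sense dopamine in the hypothalamic arcuate nucleus (ARC), together with the receptor for prolactin. They are Th, Ddc, Gch1, Slc18a2, Slc6a3, Prlr, Drd1 and Drd2. They were chosen by name and found through their Ensembl identifiers, which gave 8 of the 22322 genes in the deposited table. All 8 passed the filter on low counts that left 14188 genes for testing. RNA-seq was done on ARC tissue of male mice that were 4 weeks old at the start and then ate chow with 16.5% fat (normal-chow diet, NCD) or food with 60% fat (high-fat diet, HFD) for 16 weeks. Each diet had 3 samples, named NCD1 to NCD3 and HFD1 to HFD3 after the numbers in their titles. The ARC was taken out of frozen brain slices with laser capture microdissection (LCM), a method in which a laser cuts a chosen area out of a thin section. Total counts were 15925648, 9937632 and 6882449 for NCD1, NCD2 and NCD3, and 8024664, 10479778 and 5171381 for HFD1, HFD2 and HFD3.

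The labels and methods leave several things about these samples unsaid. They do not say whether a sample is 1 mouse or several, so p-values measure only the spread between these samples. The methods name wild-type C57BL/6J mice as well as a Kiss1-Cre by R26R-EYFP cross used to see where Kiss1 neurons lie, without tying either genotype to the sequenced samples. The tissue is bulk, so fewer cells of a type and less RNA per cell cannot be told apart in any value below.

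Tuberoinfundibular dopamine neurons lie in the ARC and send axons to the median eminence, where their dopamine enters the portal blood and holds back prolactin release from the anterior pituitary. Prolactin in turn acts on these neurons through its receptor and raises their dopamine synthesis, which closes a short feedback loop. Tyrosine hydroxylase, encoded by Th, is the rate-limiting enzyme of dopamine synthesis, and it needs the cofactor tetrahydrobiopterin, whose synthesis begins with the enzyme encoded by Gch1.

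None of these genes passed the test of a difference between the diets, and for each the spread between samples of 1 diet made the groups overlap. By edgeR's quasi-likelihood test 0 of the 8 genes had an adjusted p under 0.05, against 0.0564% of all genes tested, and 0 of the 8 had an unadjusted p under 0.05, against 2.3%. DESeq2 and limma on the FPKM values also gave 0 of the 8 at either threshold. In 4 of 15 alternatives 1 of the 8 had an unadjusted p under 0.05, which was Th with log2 depth as a covariate, Slc18a2 without NCD2, and Gch1 without NCD3 or without HFD2. The combined threshold of p under 0.05 with a change over 1.5-fold took in 1.9% of all genes tested and 0 of the 8. NCD and HFD values were fully separate for 6.47% of all genes tested and for 0 of the 8. The estimated log2 fold change of HFD against NCD was above 0 for 5 genes and below 0 for 3, with a median of 0.13 where the median of all genes tested was 0.003.

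Only Th and Slc18a2 carried the letters of the cAMP response element in the promoter windows examined, and a stretch of each is shown for that reason. The letters searched were TGACGTCA, which read the same on both strands and which the transcription factor CREB1 is known to bind. The windows came from RefSeq (GRCm38.p6), ran from 250 bases before to 50 bases after a start site, and numbered 12 for the 8 genes. Of all 32851 such windows, 1.79% held the letters. The stretches below cover the 100 bases before the start site and the first 10 bases from it, 5′ to 3′, with the matching letters in capitals.
Th: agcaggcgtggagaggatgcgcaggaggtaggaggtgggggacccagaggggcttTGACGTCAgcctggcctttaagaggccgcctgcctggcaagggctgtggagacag
Slc18a2: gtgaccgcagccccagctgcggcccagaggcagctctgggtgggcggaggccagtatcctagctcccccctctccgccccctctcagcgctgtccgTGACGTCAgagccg
The Th stretch is chr7:142899986-142900095 on the minus strand, and its letters begin 45 bases before the start site. The Slc18a2 stretch is chr19:59260778-59260887 on the plus strand, and its letters begin 4 bases before the start site and run past it. Their log2 fold changes were 0.21 for Th and -0.36 for Slc18a2, neither past the test. A match describes the letters and says nothing of binding in these samples. The letters TGANTCA of the AP-1 site, found in 7.81% of all windows, occurred in windows of Th, Ddc and Prlr. TTCNNNGAA, the letters of the STAT5 site, stood in 8.3% of all windows and in 1 window of Prlr. AAAGGTCA, bound by NR4A factors, stood in 1.51% of all windows and in the Ddc window. These 3 patterns were also searched on both strands, and none of their matches overlapped the cAMP response element letters.

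By the deposited FPKM, the 2 synthesis enzymes were the most strongly expressed of the 8 genes per transcript length. Th, at chr7:142892752-142931128 on the minus strand of GRCm38, measured 76.3, 93.65 and 60.2 CPM (counts relative to the TMM-scaled library total) in NCD1 to NCD3 and 84.8, 123 and 58.5 CPM in HFD1 to HFD3. HFD2 was the highest of all 6 samples and HFD3 the lowest, so the HFD values lay on both sides of the NCD values. Mean Th was 76.7 ± 16.7 CPM on NCD and 88.8 ± 32.4 CPM on HFD (SD, n = 3 each). Its log2 fold change was 0.21 (SE 0.27, 95% interval -0.37 to 0.80, adjusted p = 0.999 by edgeR). The sign rested on HFD2, since without it the estimate was -0.10. Other estimates were 0.07 without NCD3, 0.38 without NCD2 and 0.43 without HFD3. With log2 depth as a covariate Th had a log2 fold change of 0.42 (unadjusted p = 0.0462, adjusted p = 0.9998 by edgeR).

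Ddc encodes aromatic L-amino acid decarboxylase, which turns L-DOPA into dopamine, and spans chr11:11814101-11898144 on the minus strand. It measured 61.6, 72.9 and 59.9 CPM in the NCD samples and 56.55, 77.4 and 39.5 CPM in the HFD samples. As for Th, HFD2 was highest and HFD3 lowest, with the 3 NCD samples between them. Ddc had a log2 fold change of -0.16 (SE 0.24, 95% interval -0.69 to 0.37, adjusted p = 0.999 by edgeR), and without HFD3 it was 0.046. The Ddc estimate was -0.43 without HFD2 and -0.020 with log2 depth as a covariate. HFD2 was also the sample with the most Pmch (1917 CPM, against 270.9 to 717 CPM in the others), a peptide gene of the neighbouring lateral hypothalamus, and the part of the dissected area in the Th and Ddc values was not tested.

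Gch1 encodes GTP cyclohydrolase 1 and spans chr14:47153895-47189413 on the minus strand. NCD1 and NCD2 both measured 21.7 CPM, NCD3 measured 11.1 CPM, and the HFD samples measured 11.8, 16.2 and 10.2 CPM. NCD1 and NCD2 lay above every HFD sample, whereas NCD3 lay inside the HFD range. The 3 samples with the smallest total counts, HFD3, NCD3 and HFD1, were the 3 with the least Gch1. Mean Gch1 was 18.2 ± 6.09 CPM on NCD and 12.7 ± 3.10 CPM on HFD (SD, n = 3 each). Its log2 fold change of -0.51 (SE 0.30, 95% interval -1.17 to 0.14, adjusted p = 0.999 by edgeR) was the largest in size among the 8 genes, though no longer without NCD2 or HFD3 or with log2 depth as a covariate. Leaving out NCD3 gave -0.76 (unadjusted p = 0.0150, adjusted p = 0.604) and leaving out HFD2 gave -0.73 (unadjusted p = 0.0499, adjusted p = 0.892). Smaller estimates came without NCD1 (-0.378), NCD2 (-0.375) or HFD3 (-0.386) and with log2 depth as a covariate (-0.205), none with an unadjusted p under 0.05.

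The vesicle and plasma membrane transporters had estimates of opposite sign. Slc18a2, at chr19:59260896-59296012 on the plus strand, encodes VMAT2, which loads monoamines into vesicles. It measured 62.4, 36.2 and 51.2 CPM in NCD and 34.55, 37.0 and 45.5 CPM in HFD. NCD1 and NCD3 were above all HFD samples, and NCD2 lay among the lowest. Slc18a2 had a log2 fold change of -0.36 (SE 0.24, 95% interval -0.87 to 0.15, adjusted p = 0.999 by edgeR), with -0.55 without NCD2 (unadjusted p = 0.0496, adjusted p = 0.9999) and -0.18 without NCD1.

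Slc6a3 encodes the dopamine transporter DAT, which returns released dopamine to the neuron, and spans chr13:73536747-73578672 on the plus strand. It measured 15.6, 17.0 and 12.04 CPM in NCD and 17.15, 14.4 and 19.0 CPM in HFD. The diets overlapped, with NCD3 the lowest and HFD3 the highest sample. For Slc6a3 the log2 fold change was 0.17 (SE 0.24, 95% interval -0.36 to 0.70, adjusted p = 0.999 by edgeR), and with 1 sample left out it lay between 0.048 (without NCD3) and 0.27 (without NCD2).

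Prlr encodes the receptor through which the neurons sense prolactin and spans chr15:10177238-10349180 on the plus strand. It measured 102.8, 81.3 and 137.8 CPM in NCD and 116.8, 94.1 and 137.2 CPM in HFD. The highest NCD and the highest HFD sample were almost level, and the 3 samples with the smallest total counts, NCD3, HFD1 and HFD3, were the 3 with the most Prlr. Mean Prlr was 107 ± 28.5 CPM on NCD and 116 ± 21.5 CPM on HFD (SD, n = 3 each). The diet estimate for Prlr was a log2 fold change of 0.11 (SE 0.24, 95% interval -0.40 to 0.63, adjusted p = 0.999 by edgeR), and it was -0.053 without NCD2, -0.026 without HFD3 and -0.067 with log2 depth as a covariate. Larger Prlr estimates came without NCD3 (0.34) and without HFD2 (0.24).

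Prlr was also the single member whose deposited FPKM did not keep step with its counts. FPKM divides the CPM-like count further by the length of the transcript, so a gene of fixed length has nearly the same FPKM per CPM in every sample. For the other 7 genes the highest FPKM per CPM was between 1.07 and 1.08 times the lowest. For Prlr it was 2.16 times the lowest, from 0.121 in NCD3 to 0.263 in NCD1. By FPKM, NCD1 was therefore the sample with the most Prlr (26.98), although NCD3, HFD1 and HFD3 were above it by CPM. The gene is known to give transcripts of different length that encode long and short receptor forms, and their part in this difference was not tested. By limma on log2(FPKM + 1) the Prlr estimate was -0.012.

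Drd1 and Drd2, which encode the dopamine receptors that raise and lower cyclic AMP, were the least abundant of the 8 genes per transcript length. Drd1, at chr13:54051183-54055705 on the minus strand, measured 8.13, 7.84 and 5.87 CPM in NCD and 9.32, 7.69 and 7.34 CPM in HFD. NCD3 was the lowest and HFD1 the highest, with the other 4 samples between them. Its log2 fold change was 0.15 (SE 0.29, 95% interval -0.49 to 0.79, adjusted p = 0.999 by edgeR), with 0.029 without NCD3 and 0.040 without HFD1.

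Drd2, at chr9:49340627-49408177 on the plus strand, measured 2.41, 3.26 and 4.66 CPM in NCD and 5.10, 3.06 and 3.95 CPM in HFD. NCD1 was the lowest sample and HFD1 the highest, and the diets overlapped. These values rested on 40, 32 and 31 counts in NCD and on 41, 31 and 21 counts in HFD, far above the 3 counts taken here as the detection floor, but too few for a narrow estimate. For Drd2 the log2 fold change was 0.25 (SE 0.41) and had the widest 95% interval of the 8 genes, from -0.64 to 1.14 (adjusted p = 0.999 by edgeR). The Drd2 estimate was 0.022 without NCD1, 0.036 without HFD1, 0.52 without NCD3, 0.43 without HFD2 and 0.027 with log2 depth as a covariate. The other dopamine receptor genes, Drd3, Drd4 and Drd5, did not pass the filter on low counts, and Drd5, the one with the highest CPM, averaged 1.22 CPM.

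**Figure D1:**
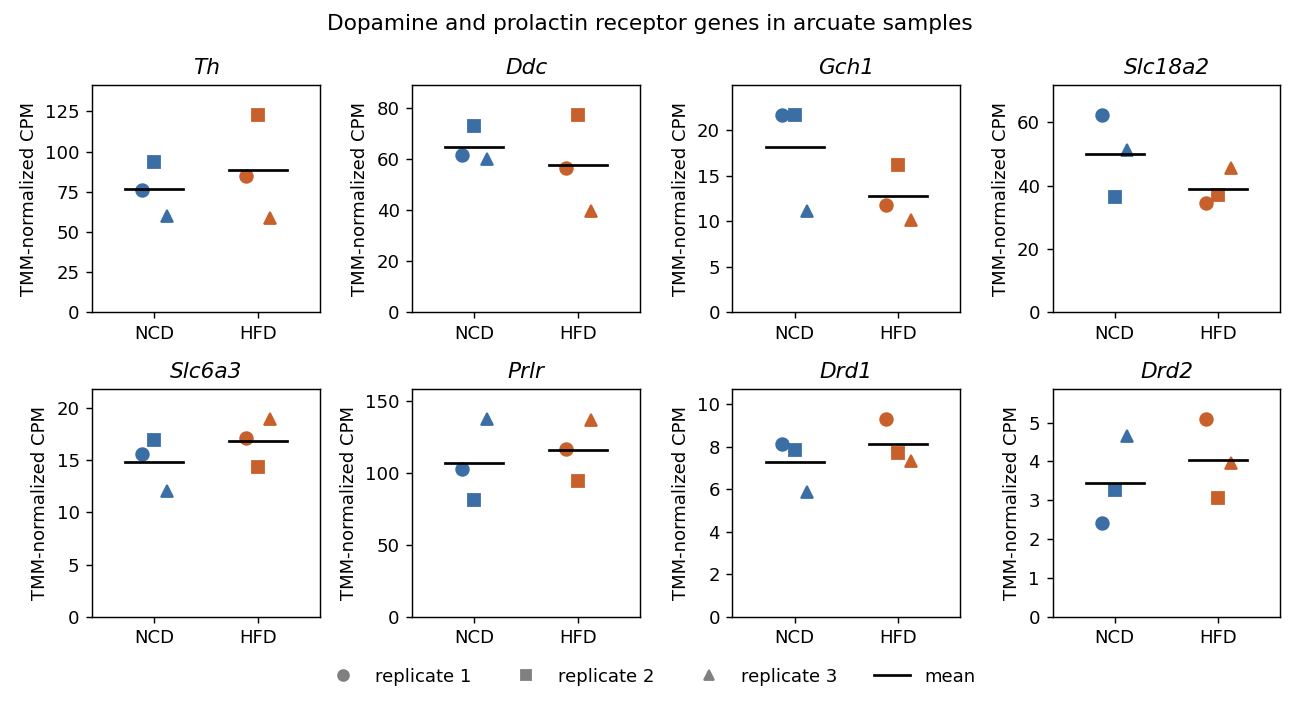
TMM-normalized CPM (vertical axes, from 0) of the 8 genes in each NCD and HFD sample, with symbols for the replicate number and a bar for the mean of 3 samples. The diets overlap in every panel, and HFD replicate 2 has the highest Th and Ddc (123 and 77.4 CPM).

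The intervals say how large a diet difference these 6 samples would still allow. All 8 intervals included 0, and 6 of the 8 lay within a 2-fold change in either direction. The exceptions were Gch1, whose fold change could be as low as 0.444, and Drd2, whose fold change could be as high as 2.21. None of the 8 lay within a 1.5-fold change, so for each gene a change of that size in at least 1 direction was inside the interval. The exact permutation test on 3 against 3 samples cannot give a p below 0.1, and for the 8 genes it gave between 0.3 (Gch1 and Slc18a2) and 0.8 (Prlr).

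**Figure D2:**
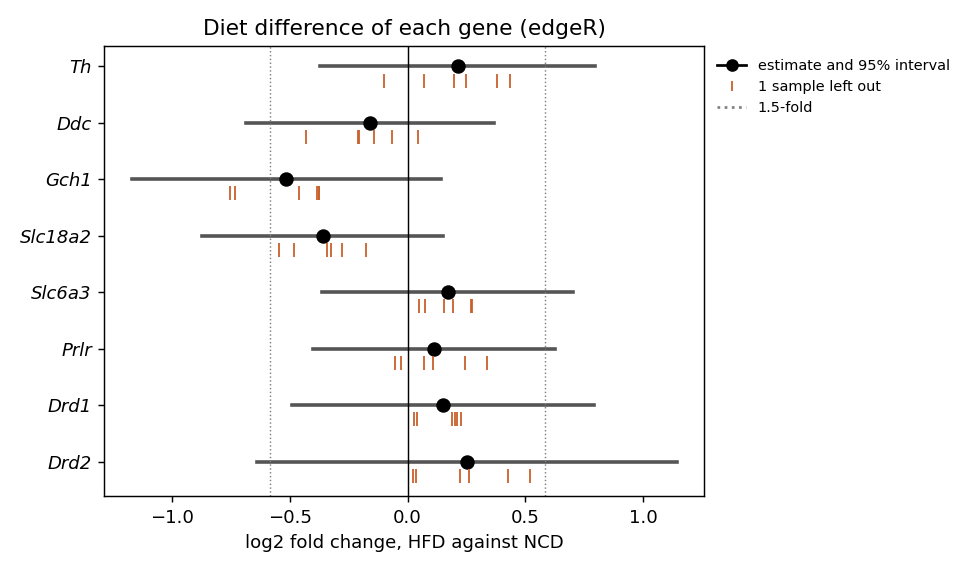
Log2 fold change of HFD against NCD for each gene (black point) with its 95% interval from edgeR, the estimates with 1 sample left out (orange ticks) and dotted lines at 1.5-fold. All 8 intervals include 0, and the ticks of Th, Ddc and Prlr lie on both sides of 0.

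Levels of the 8 genes were compared with each other on the FPKM scale. Th had the highest mean over the 6 samples, 45.1 FPKM (range 31.8 to 65.1), followed by Ddc at 31.3 FPKM (20.8 to 38.4). Prlr came next with 19.1 FPKM (14.6 to 27.0) and Slc18a2 with 11.8 FPKM (9.15 to 17.2), and within every sample the order of these 4 genes was the same. The place of Prlr in this order rested on its deposited FPKM, which per CPM differed up to 2.16-fold between samples. By mean CPM, a scale that takes no account of length, Prlr was the highest of the 8 genes (111.7 CPM). Gch1 averaged 5.57 FPKM and Slc6a3 4.598 FPKM. Gch1 exceeded Slc6a3 in 4 of 6 samples, and their ranges overlapped. It was higher in all 3 NCD samples (means 6.58 and 4.31 FPKM) and in 1 of 3 HFD samples (means 4.557 and 4.887 FPKM), a turn in order between the diets that was not tested. Drd1 averaged 2.18 FPKM (1.61 to 2.65) and Drd2 1.46 FPKM (0.99 to 2.01), with Drd1 higher in 5 of 6 samples. Ranges of neighbouring genes overlapped everywhere in this order except between Slc18a2 and Gch1 and between Slc6a3 and Drd1.

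**Figure D3:**
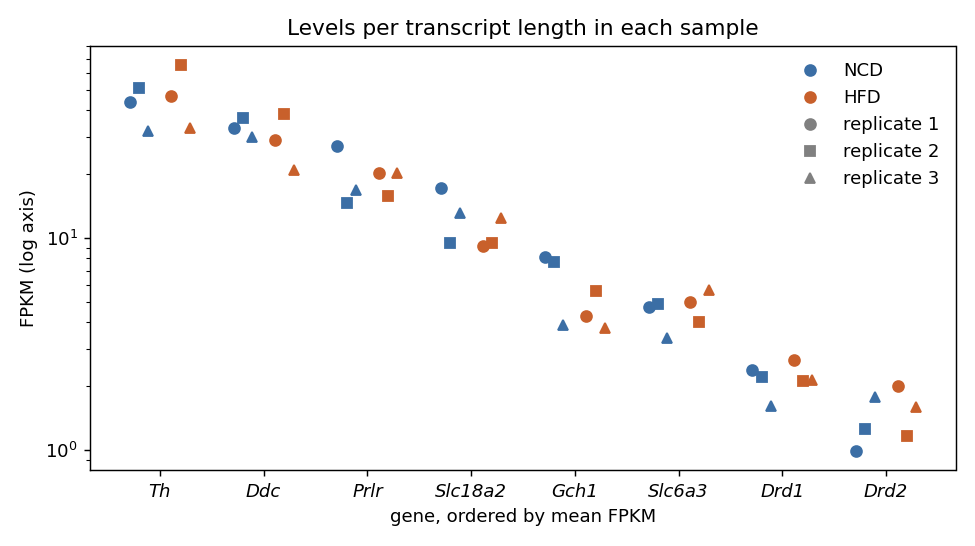
Deposited FPKM (log axis) of each gene in the 3 NCD and 3 HFD samples, ordered from left to right by the mean over all 6. Th, Ddc, Prlr and Slc18a2 lie above the other 4 genes, and the colours of the diets are mixed within each gene.

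The genes were also compared with each other inside each sample, where the scaling of the library drops out of the ratio. Of the 6 ratios examined, 2 separated the diets. Both of these contain Th, so they are not independent of each other. The share of all gene pairs whose ratio separates the diets was not computed. Among single genes, 6.47% of all genes tested separated them. The ratio of Th to Ddc, on the log2(FPKM + 0.1) scale, was 0.40, 0.46 and 0.087 in NCD and 0.68, 0.76 and 0.66 in HFD. Each HFD sample thus had more Th per Ddc than any NCD sample, with NCD3 the lowest. The difference of the means was 0.38 (0.32 ± 0.20 in NCD, 0.70 ± 0.054 in HFD, SD, n = 3 each), with p = 0.1 by a two-sided exact permutation test, the smallest p the design allows, and 0.3 after Benjamini-Hochberg adjustment over the 6 ratios.

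The ratio of Gch1 to Th was -2.40, -2.70 and -3.00 in NCD and -3.41, -3.51 and -3.10 in HFD on the same scale. Every HFD sample had less Gch1 per Th than any NCD sample, although NCD3 and HFD3 were close. The means differed by -0.64 (two-sided exact permutation p = 0.1, adjusted p = 0.3). The difference stayed between -0.79 and -0.49 when any 1 sample was left out, and that of Th to Ddc between 0.27 and 0.45. The other ratios overlapped between the diets, with differences of 0.50 for Th to Slc18a2, 0.014 for Slc6a3 to Th, -0.074 for Drd1 to Drd2 and -0.18 for Prlr to Th. The difference for Th to Slc18a2 went from 0.195 without HFD2 to 0.878 without HFD3, and that for Prlr to Th was -0.038 when taken from counts in place of FPKM. None of the 6 passed a threshold of 0.05, which 3 against 3 samples cannot reach.

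**Figure D4:**
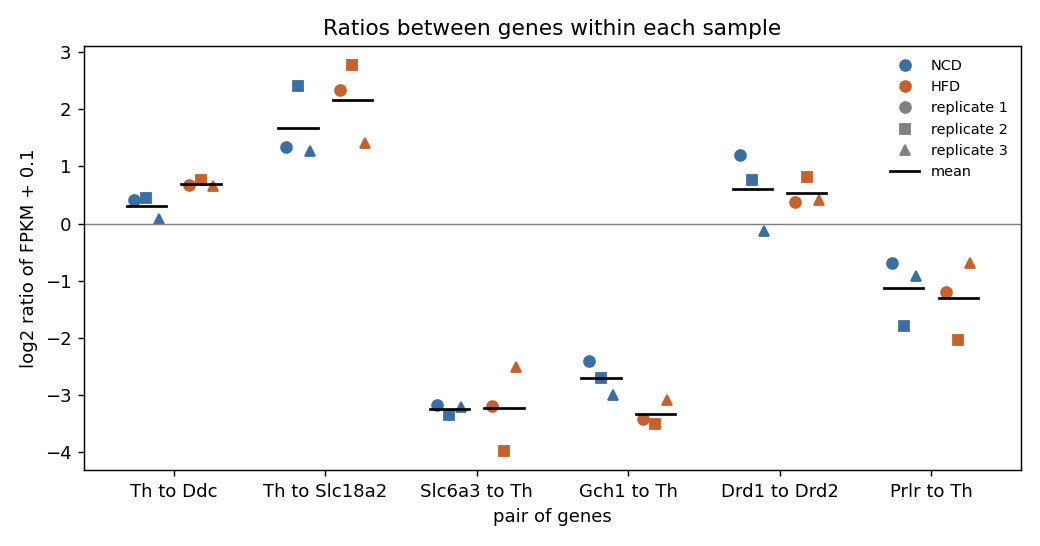
Log2 ratio of FPKM + 0.1 for 6 pairs of genes within each sample, with NCD in blue, HFD in orange and a bar for each mean. The diets do not overlap for Th to Ddc (means 0.32 and 0.70) and Gch1 to Th (means -2.70 and -3.34), and they overlap for the other pairs.

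The 8 genes did not rise and fall across the 6 samples as one group. Closeness was measured as the root mean square difference between log2 CPM profiles, each centred on its own mean. Slc6a3 and Drd1 were the closest pair (0.17), followed by Th and Ddc (0.22) and by Prlr and Drd2 (0.28). Gch1 and Drd2 were farthest apart (0.75). HFD3 was the lowest sample for Th, Ddc and Gch1, yet it was the highest for Slc6a3. The summed CPM of the 8 genes averaged 342.5 ± 8.50 in NCD and 343.4 ± 26.6 in HFD (SD, n = 3 each), with overlap between the diets.

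Among the tested genes with a mean of at least 5 CPM, 12007 could be compared with Th. The profile most like that of Th belonged to Tmem192 (0.0887), followed by Il34 (0.0976), Zfp273 (0.102), Mrps27 (0.1025) and Nudt1 (0.108). The closest gene was Skap2 for Ddc (0.0578), Brat1 for Gch1 (0.0986), Prpf39 for Slc18a2 (0.0607) and Tln1 for Slc6a3 (0.0594). It was Zfp292 for Prlr (0.0487), Txnip for Drd1 (0.0329) and Mpp6 for Drd2 (0.0272). With 6 samples and this many candidates a close profile is a description of these libraries.

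Beyond the 8 genes, the rest of the pathway was read from lists of cofactor enzymes, breakdown enzymes, receptor partners and prolactin signalling. Of 43 such genes 40 were tested, and 0 had an adjusted p under 0.05 by edgeR. An unadjusted p under 0.05 was reached by 2 genes with higher and 0 with lower values in HFD, which is 5% of those tested against 2.3% of all genes. The median log2 fold change of the 40 tested genes was 0.11, with 25 genes above 0 and 15 below. The lists were written with earlier results of these data known, so the share of 5% is a description and cannot serve as a test.

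Among the 6 other genes of tetrahydrobiopterin synthesis and recycling, Gchfr stood out by its unadjusted p. It encodes the feedback regulator that binds and restrains GTP cyclohydrolase 1, the product of Gch1. Gchfr measured 1.02, 1.63 and 1.05 CPM in NCD and 3.36, 3.06 and 4.14 CPM in HFD, from 7 to 31 counts per sample. All 3 HFD samples lay above all NCD samples, whereas the Gch1 values overlapped. The log2 fold change of Gchfr was 1.49 (SE 0.46, unadjusted p = 0.00632, adjusted p = 0.999 by edgeR), and in the 14 alternative settings that gave a value it stayed between 1.16 and 1.74. Qdpr, which encodes an enzyme that recycles the cofactor, had the highest mean CPM of the list, a scale that takes no account of length, and a log2 fold change of 0.018.

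None of the 6 genes for dopamine breakdown and vesicle partners reached an unadjusted p under 0.05, with log2 fold changes of -0.090 for Maoa and -0.083 for Maob, the monoamine oxidases that degrade dopamine. None of the 15 genes of dopamine receptor signalling reached it either, with log2 fold changes of -0.032 for Gnal and 0.58 for Gnai2, both G protein genes.

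The prolactin receptor signals through JAK2 and STAT5, and its targets include the SOCS proteins that switch the signal off again. Of 13 genes in this list, 8 had estimates above 0 and 5 below, and Socs3 alone had an unadjusted p under 0.05. Socs3 measured 3.91, 5.60 and 3.31 CPM in NCD and 9.07, 6.01 and 12.4 CPM in HFD. The diets did not overlap, although HFD2 and NCD2 were close. Its log2 fold change was 1.08 (SE 0.37, unadjusted p = 0.0118, adjusted p = 0.999 by edgeR), and without HFD3 it was 0.81 with an unadjusted p above 0.05. Socs3 is also a target of other cytokine and leptin signals, and the kinase and factor genes Jak2, Stat5a and Stat5b had log2 fold changes of 0.037, -0.14 and -0.27. Stat3, with the highest mean CPM of the list, had 0.18.

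Transcription factors and peptides known from hypothalamic dopamine neurons were read in the same way, with 24 of 25 genes tested and 0 at an adjusted p under 0.05. At an unadjusted p under 0.05, 2 were higher and 1 was lower in HFD, 12.5% of those tested against 2.3% of all genes. These lists were written with earlier results of these data known, so their share is a description and cannot serve as a test. Nr4a2, a nuclear receptor needed for dopamine neurons of the midbrain and present in other neurons too, measured 14.33, 13.03 and 35.51 CPM in NCD and 12.30, 4.63 and 12.98 CPM in HFD. Its values were highest in NCD3 and lowest in HFD2, and the lowest NCD sample exceeded the highest HFD sample by a small margin. The log2 fold change was -1.07 (SE 0.44, unadjusted p = 0.0304, adjusted p = 0.999 by edgeR), with a range of -1.54 to -0.47 over the alternatives. Without NCD3 (-0.47) or HFD2 (-0.71) its unadjusted p was above 0.05.

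Gal, the gene of the peptide galanin, measured 143.1, 214.4 and 225.1 CPM in NCD and 341.4, 298.6 and 306.7 CPM in HFD. All HFD samples were above all NCD samples, with a log2 fold change of 0.70 (SE 0.23, unadjusted p = 0.00899, adjusted p = 0.999 by edgeR). Cartpt, the gene of the CART peptides and the one with the highest mean CPM in its list, measured 395.7, 673.0 and 577.3 CPM in NCD and 903.8, 777.4 and 1078 CPM in HFD. Its diets did not overlap either, with a log2 fold change of 0.75 (SE 0.25, unadjusted p = 0.0116, adjusted p = 0.999 by edgeR). Both peptides are also made by ARC neurons that do not make dopamine. The GABA synthesis genes Gad1 and Gad2, which dopamine neurons of the ARC share with many others, had log2 fold changes of -0.10 and -0.032.

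**Figure D5:**
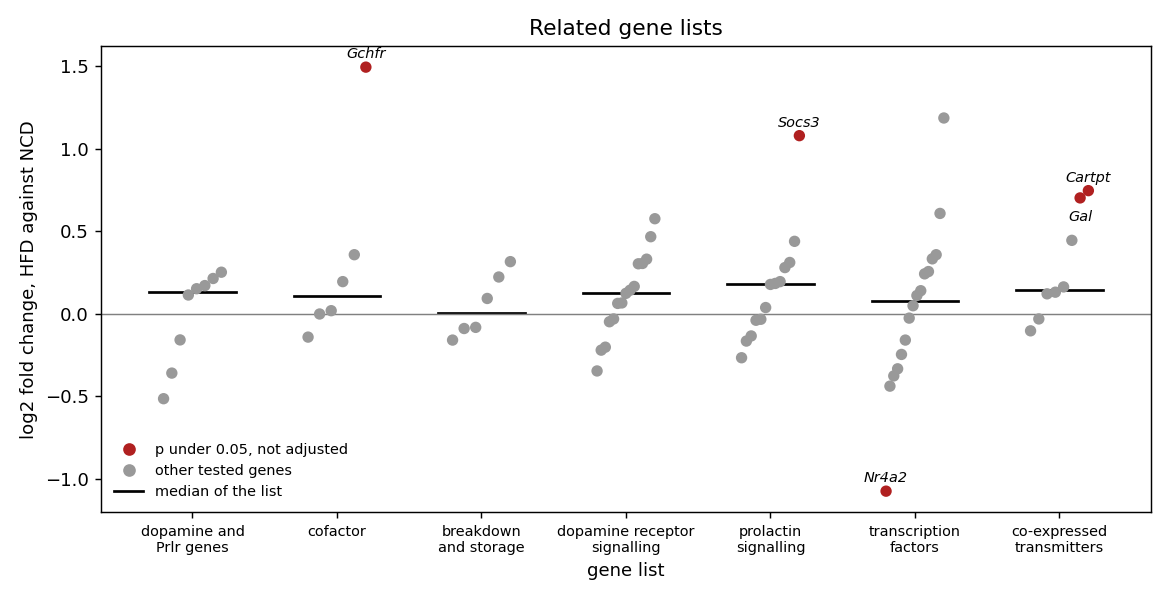
Log2 fold change of HFD against NCD for each tested gene of 7 lists, with red points at an unadjusted p under 0.05 and a bar at each list's median. None of the 8 dopamine and Prlr genes is red, while Gchfr, Socs3, Nr4a2, Gal and Cartpt are, and none of the points passed adjustment.

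Markers of other cells were read beside these values, because Th and Ddc are also expressed outside the ARC. Of the noradrenergic markers Dbh had 0 to 6 counts and Slc6a2 had 0 or 1, both below the filter. Phox2a had 2 counts in each NCD sample and 15, 8 and 15 in HFD, so the summed CPM of the 5 markers was 0.602, 0.407 and 0.451 in NCD and 1.86, 0.789 and 3.76 in HFD without overlap. The serotonergic markers (3 genes, top gene Tph2 at 0.455 CPM) were also below the filter. For midbrain dopamine neurons 4 of 10 genes, Th and Slc6a3 among them, passed the filter. Aldh1a1 had 61.7, 69.0 and 58.7 CPM in NCD and 47.1, 66.05 and 42.7 CPM in HFD, and Foxa1 had 29, 2 and 24 counts in NCD and 7, 6 and 9 in HFD, with overlap for both. Foxa2 and Lmx1a were highest in NCD3, at 12 and 9 counts against 0 to 3 elsewhere, and Lmx1b had 1 to 14 counts. Pitx3 and En1 had 0 to 3 counts per sample, and En2 had 0 or 1. The part of such neurons in the Th and Slc6a3 values was not tested. Of the striatal genes Adora2a had 0 to 5 counts, while Penk, with the highest mean CPM, averaged 128.6 CPM, and 0 of the 8 tested, Drd1 and Drd2 included, had an unadjusted p under 0.05.

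The pituitary hormone genes Prl and Gh were at 0 in all samples, which at a floor of 3 counts allows from 0.188 CPM in NCD1 to 0.580 CPM in HFD3. Cga, the shared subunit of the pituitary glycoprotein hormones and the pituitary marker of 7 with the highest mean CPM, averaged 17.0 CPM, peaked in HFD3 at 47.98 CPM and stood at 1.36 on the log2 fold change scale (unadjusted p = 0.0259, adjusted p = 0.999 by edgeR). The diets overlapped for Cga, and its unadjusted p stayed under 0.05 in 10 of 15 alternatives, with estimates of 0.43 without HFD3, 1.002 without NCD2, 1.35 without NCD1 and 0.58 with log2 depth as a covariate among those that did not. Choroid plexus markers, which matter for Prlr because that epithelium expresses it strongly, had 7 of 10 genes tested, 0 with an unadjusted p under 0.05 and a summed CPM of 52.6 ± 4.62 on NCD and 44.9 ± 5.38 on HFD with overlap (SD, n = 3 each). Clic6 led them at 25.7 CPM, Ttr averaged 2.85 CPM, and Aqp1, Cldn2 and Kcne2 were below the filter. The part of these cells in the Prlr values was not tested.

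The dissected tissue carried ARC markers in every sample. Pomc had the highest mean CPM of the list (672.5, with 1209 in NCD2), whereas by FPKM Sst (738.5) was above Pomc (667). Of 12 ARC neuron genes Tac2 alone had an unadjusted p under 0.05 (log2 fold change 0.60, adjusted p = 0.999 by edgeR). The Tac2 values overlapped between the diets, and its unadjusted p stayed under 0.05 in 10 of 15 alternatives. It did not without NCD1 (0.40), NCD2 (0.62), HFD1 (0.43) or HFD3 (0.54), nor with log2 depth as a covariate (0.36). Kiss1 had 0 counts in NCD1 and HFD1 and 21 to 42 counts in the other samples. Its level thus differed between samples of the same diet more than between the diets.

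The vasopressin, oxytocin and paraventricular list summed to 2960, 5907 and 2641 CPM in NCD and to 1431, 1497 and 1350 CPM in HFD, without overlap. Avp led it at 2009 CPM. The log2 fold change was -1.71 for Avp (adjusted p = 0.194 by edgeR), with -0.87 for Oxt and 0.51 for Trh, all at an unadjusted p under 0.05. That p was lost for Oxt without NCD2 or HFD1 and for Trh without NCD1 or any 1 HFD sample, and it held for Avp in all 15 alternatives, 4 of which gave an adjusted p under 0.05. The ventromedial and lateral list was led by Pmch, and 0 of its 5 genes reached that p. General neuron genes had 0 of 8, led by Snap25 at 1151 CPM, with a summed CPM of 4100 ± 118 in NCD and 3806 ± 424 in HFD (SD, n = 3 each). In the tanycyte and ependyma list Col23a1 (0.91) and Crym (0.89) were higher at an unadjusted p under 0.05 among 10 genes, against 2.3% of all genes, with Rarres2 highest by mean CPM. Both overlapped between the diets. Col23a1 kept that p in 9 of 15 alternatives and lost it without NCD1, NCD2 or HFD3 (0.27 without HFD3), with log2 depth as a covariate and by limma. Crym lost it without NCD2 or HFD1. In the glia and vessel list, led by Mbp, Gfap was higher (0.88) and Cldn5 lower (-0.48) at that p among 12 genes, against 2.3% of all genes. Gfap lost it without NCD3, HFD1 or HFD2, and Cldn5 without NCD2, HFD1 or HFD3 and with log2 depth as a covariate. With that covariate Gfap had an adjusted p of 0.0453 by edgeR (log2 fold change 1.35). In the main test the other astrocyte genes of the list had estimates of the opposite sign, -0.12 for Aqp4 and -0.29 for Aldh1l1. The endothelial genes Pecam1 and Flt1 had -0.023 and 0.017, so Gfap and Cldn5 do not stand for all markers of their cells. The part of these neighbouring cells in the dopamine and Prlr values was not tested.

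Some positions overlap other annotated genes. Ddc overlaps 1700042O10Rik, Gch1 overlaps Gm49134 and Gm18811, Slc18a2 overlaps Gm29261, and Prlr overlaps Gm21973, which had 0 counts. The others of these genes were not rows of the table. The kit named in the labels does not mark strand, so reads from overlapping genes on opposite strands cannot be told apart.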

How the data were processed

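RNA was reverse transcribed after oligo(dT) enrichment, and libraries were sequenced on a NovaSeq instrument. Per the methods, the authors compared cleaned reads with ribosomal sequences (bowtie2), aligned reads with HISAT2 and quantified genes with StringTie and RSEM; the labels name mm10, and versions and annotation are not given in the sources used here. The deposited table holds whole-number counts per gene and sample, not normalized by the authors. It also holds FPKM per sample as computed by the authors. The authors' group means, log2 fold changes, p-values and FDR were not used, and 0 per-sample columns were left out. Identifiers were matched to GENCODE M21, which named 22267 of 22322 genes.

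Counts were filtered with filterByExpr, scaled with TMM and tested with edgeR 4.0.16 (glmQLFit and glmQLFTest, R 4.3.3), diet being the only term, with Benjamini-Hochberg adjustment over 14188 genes. The biological coefficient of variation was 0.244. DESeq2 1.42.0 and limma 3.58.1 were alternatives, and the steps were tested on simulated data. The precision of a count rests on depth, and 3 counts equal 0.188 CPM in NCD1 and 0.580 CPM in HFD3, for counting error only. Ratios and single values were tested by two-sided exact permutation, on log2 CPM with a prior count of 2 for genes.

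All 8 genes are named. From each list, the members with an unadjusted p under 0.05 (at most 4) and the member with the highest mean CPM are named, apart from some genes that are not reported here, and other list genes were chosen for their role after their values were seen. The genes and lists were chosen with earlier results of these data known. Samples with the same number correlated, as deviations from their group means, at -0.012, 0.113 and 0.369, so the numbers were not taken to pair samples.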

Additional observations from a re-analysis of the deposited data

How the results depend on the processing

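In 15 alternatives the count of the 8 genes with an adjusted p under 0.05 stayed at 0. The count with an unadjusted p under 0.05 was 1 with log2 depth as a covariate (Th at 0.42) and 0 to 1 with 1 sample left out (Slc18a2 without NCD2, Gch1 without NCD3 or HFD2), by edgeR. Gch1, Slc18a2, Slc6a3, Drd1 and Drd2 kept their sign wherever a value was given, but not their size, and Drd2 had no value with a mean of at least 50 counts required. The Prlr estimate was -0.012 and -0.011 by limma on log2(FPKM + 1) and log2(FPKM + 0.1), and -0.067 with log2 depth as a covariate. With 1 sample left out, log2 fold changes ranged from -0.10 to 0.43 for Th, -0.43 to 0.046 for Ddc, -0.76 to -0.38 for Gch1, -0.55 to -0.18 for Slc18a2, 0.048 to 0.27 for Slc6a3, -0.053 to 0.34 for Prlr, 0.029 to 0.23 for Drd1 and 0.022 to 0.52 for Drd2. Likewise the differences of log2 ratios ranged from 0.195 to 0.878 for Th to Slc18a2, -0.34 to 0.39 for Slc6a3 to Th, -0.44 to 0.22 for Drd1 to Drd2 and -0.51 to 0.19 for Prlr to Th. The count of all genes with p under 0.05 and over 1.5-fold, 270 in the edgeR test, was 427 with 1 count required, 179 with a mean of 50 required and 195 to 982 with 1 sample left out (982 without NCD3, 606 without HFD2). The cause of these shifts was not tested.

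With the replicate number as a block, in a design where the labels do not say that numbers mark pairs, 0 of the 8 genes had a p under 0.05, log2 fold changes were 0.17 for Th, -0.49 for Gch1 and 0.13 for Prlr, and 376 of all genes passed p under 0.05 and 1.5-fold. Among the genes named, Avp had an adjusted p under 0.05 there (0.00531), by DESeq2 (2.32e-05), with 1 count required (0.0215) and without NCD3 (0.0186), and Gfap with log2 depth as a covariate (0.0453). Depth limits genes with few counts, such as Drd2 (21 to 41 per sample) and Gchfr (7 to 31).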
